A study of Sus scrofa with 18 samples.

Results

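H3K4me3 and H3K27ac were examined at 10 genes that mark endothelial cells or drive the growth of blood vessels in pig myometrium, the muscle wall of the uterus. The genes were VEGFA, KDR, FLT1, TEK, TIE1, ENG, CDH5, PECAM1, VWF and ERG, out of 28210 RefSeq genes on the named chromosomes of Sscrofa11.1. They were taken as a list by name and not by any value in the data, though earlier results of these data were known. All 10 were placed. A peak belonged to a gene when at least 1 bp of it lay between 3 kb before and 3 kb after the gene. The study compared these marks around implantation, in 3 kinds of tissue from the mesometrial side of the uterus of Yorkshire gilts. GD15M_CM was the inner circular muscle and GD15M_LM the outer longitudinal muscle, both on day 15 of pregnancy, and CD15M_CM was circular muscle on day 15 of the oestrous cycle. Each tissue was represented by 2 gilts. For each tissue a gilt gave a library for H3K4me3, a library for H3K27ac and an IgG control, 18 libraries in all. The labels do not say whether both pregnant layers came from the same gilts. The labels name no allele, agent or age, and the endometrium was cut away before the muscle layers were separated. The libraries were made by CUT&Tag, in which an antibody directs a transposase to the marked nucleosomes.

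Endothelial cells line every vessel, and in the myometrium they make up a minority of the nuclei among smooth muscle. VEGFA is the main secreted signal for vessel growth and acts through the tyrosine kinase receptors KDR and FLT1, while the angiopoietins act through TEK and its partner TIE1. H3K4me3 marks the starts of genes that are active or poised, and H3K27ac marks active promoters and enhancers. A peak called from ground tissue is a mixture over all its cells, so that fewer nuclei of a cell type and less mark per nucleus cannot be told apart.

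Both gilts of a tissue were pooled before the peaks were called, so there is 1 peak list per mark and tissue and no value per gilt. The 3 H3K4me3 lists held 33599, 31910 and 36331 peaks in GD15M_CM, GD15M_LM and CD15M_CM, and the H3K27ac lists held 79877, 57010 and 82037. No difference between tissues below has a replicate error or a test. Fold enrichment, the ratio of mark over IgG at a peak, need not share a scale across lists, and each peak was therefore given its percentile by fold enrichment within its own list, with 100 for the highest. A gene took the percentile of its highest peak, or 0 where it had none. A difference of at least 10 percentile points was called, and the share of all genes called stands beside each count.

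The markers of the tissue were checked first. All 8 smooth muscle markers (MYH11, ACTA2, CNN1, SMTN, DES, TAGLN, MYOCD and ACTG2) had peaks of both marks in all 3 tissues, with median percentiles of 77.0, 89.0 and 85.6 for H3K4me3 and 85.9, 91.0 and 94.2 for H3K27ac in GD15M_CM, GD15M_LM and CD15M_CM. Of 8 genes of other organs, 6 had no peak in any list and only APOA1 and GFAP had peaks. The 5 placed markers of the uterine epithelium ranked at least 10 points higher in GD15M_CM than in GD15M_LM for both marks, with H3K4me3 medians of 79.4 and 59.0 and H3K27ac medians of 76.1 and 7.45.

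All 10 endothelial genes had an H3K4me3 peak in all 3 tissues. Among all genes the share with a peak was 60.0%, 61.0% and 61.7% in GD15M_CM, GD15M_LM and CD15M_CM, and among the 10381 protein-coding genes in the length range of the 10 it was 83.8%, 84.6% and 85.3%. The peaks ranked in the middle of the lists rather than near the top. The median percentile of the 10 genes was 63.7, 63.0 and 67.7, while that of all genes with a peak was 80.9, 79.4 and 81.8. Below that median in all 3 tissues were 8 of the 10 genes. VEGFA stood above it in every tissue, and ENG stood above it in GD15M_CM and just below it in the other tissues.

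**Figure D1:**
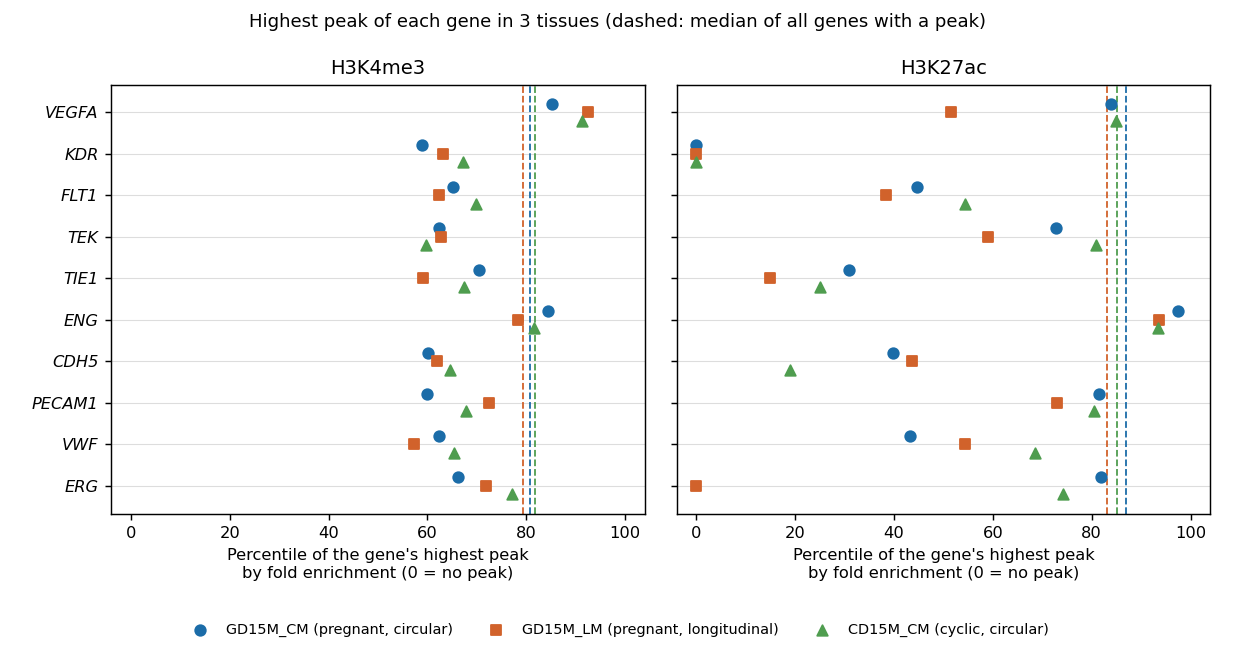
Percentile by fold enrichment (x axis, 0 to 100, 0 where no peak was found) of the highest H3K4me3 peak (left) and H3K27ac peak (right) of each of the 10 genes, with 1 point per tissue and dashed lines at the median of all genes that have a peak. For H3K4me3 the genes other than ENG and VEGFA lie between 57.3 and 77.2, whereas for H3K27ac the genes spread from 0 at KDR to 97.5 at ENG.

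VEGFA, the ligand, carried the strongest H3K4me3 of the group. The gene lies at chr7:38746393-38762282, and its leading peak, meaning the highest H3K4me3 peak of a gene in a list, covered the lower-coordinate end of the gene. It was 5.09 kb long with a fold enrichment of 17.8 in GD15M_CM, 5.41 kb and 27.7 in GD15M_LM, and 5.30 kb and 25.8 in CD15M_CM, at percentiles 85.1, 92.6 and 91.2. The reference used here gives gene ends but no strand, so that ends are named by coordinate. A long non-coding RNA, LOC106504420, ends 25 bp below that end, and the peak therefore covers the ends of both genes.

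H3K27ac at VEGFA covered the same stretch and differed in rank. In CD15M_CM a single H3K27ac peak of 6822 bp spanned the end of the gene at percentile 85.0. In GD15M_LM a peak of 6145 bp spanned nearly the same stretch at percentile 13.1 and a fold enrichment of only 2.83. In GD15M_CM the stretch was broken into 4 peaks, of which the longest measured 3026 bp and reached percentile 83.9, while the others stood at 39.1, 0.737 and 50.5. The highest peak of the stretch thus ranked lowest in longitudinal muscle. A further H3K27ac region at 4.24 to 6.35 kb inside the gene was found in all 3 tissues, at percentiles 79.4, 51.4 and 66.2, and the smaller region at 9.37 to 9.88 kb was shared as well.

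KDR, the main signalling receptor for VEGFA, was the gene with H3K4me3 and no H3K27ac. The gene lies at chr8:41809116-41856379. Its only H3K4me3 peak spanned the upper-coordinate end and measured 2.98 kb, 4.21 kb and 3.03 kb in GD15M_CM, GD15M_LM and CD15M_CM, at percentiles 59.0, 63.1 and 67.3. No H3K27ac peak was found in the gene or within 3 kb of it in any tissue. The nearest H3K27ac peak lay 158 kb, 80.8 kb and 81.9 kb from the H3K4me3 peak.

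FLT1, the VEGFA receptor that also exists as a soluble decoy, lies at chr11:5620698-5797095. Its leading H3K4me3 peak lay 1.10 kb or slightly more inside the upper-coordinate end in all 3 tissues, with lengths of 2.27, 2.29 and 1.99 kb and percentiles of 65.1, 62.4 and 69.9. A second, shorter H3K4me3 region beside it, at 172 to 173 kb from the lower end, was also found in all tissues, at percentiles 51.3, 52.6 and 51.5. H3K27ac at FLT1 was sparse: the gene had 4 regions in its 176 kb, none of them in all 3 tissues. An H3K27ac peak of 317 bp lay on the leading H3K4me3 peak in GD15M_CM, and none did in GD15M_LM or CD15M_CM. A region at 36.4 to 37.0 kb from the lower end was found in GD15M_LM and CD15M_CM, at percentiles 38.4 and 54.4.

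TEK, the angiopoietin receptor, lies at chr1:195938177-196052294. Its leading H3K4me3 peak touched the upper-coordinate end and was short, at 1.06, 1.45 and 0.843 kb, with percentiles of 62.4, 62.8 and 59.7. The percentile varied by 3.13 points over the tissues, the narrowest range among the 10 genes. The H3K4me3 peak carried no H3K27ac in any tissue. Instead, H3K27ac lay inside the gene, in a region at 101 to 103 kb from the lower end that was found in all 3 tissues at percentiles 60.9, 59.0 and 80.9. A second region at 108 kb was found in both circular muscles, at percentile 11.5 in GD15M_CM and 74.0 in CD15M_CM, and not in GD15M_LM. The highest H3K27ac peak of TEK in GD15M_CM, at 91.4 kb and percentile 72.7, was absent from the other lists.

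TIE1, the partner receptor of TEK, lies at chr6:167919662-167947253 and had a single H3K4me3 peak in each tissue. This peak was among the longest of the group, at 4.51, 4.52 and 4.57 kb, which placed it at percentile 96.0, 94.4 and 95.0 by length, yet it ranked only at percentile 70.4, 59.2 and 67.5 by fold enrichment. It did not touch an end of the gene model and lay 6.11 to 6.31 kb inside the upper-coordinate end. H3K27ac overlapped it in all 3 tissues as several short peaks that covered 59.6%, 22.4% and 46.9% of its length. These peaks were weak, and the highest stood at percentile 30.8, 14.9 and 25.0.

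ENG, the co-receptor for TGF-beta and BMP signals on endothelium, had the strongest H3K27ac of the group. The gene lies at chr1:268309379-268343861. Its leading H3K4me3 peak covered the upper-coordinate end with fold enrichments of 17.4, 18.9 and 19.4, at percentiles 84.4, 78.3 and 81.7. The highest H3K27ac peak lay on it and reached percentile 97.5, 93.6 and 93.4. Both marks thus ranked high at the same end of the gene in every tissue. H3K27ac regions were also strung along the gene body: 6 of the 14 H3K27ac regions of ENG were found in all 3 tissues, more than at any other of the 10 genes. The broadest was at 18.4 to 22.7 kb from the lower end, with a single peak of 4125 bp in GD15M_CM and of 4103 bp in CD15M_CM and a pair of peaks of 1760 and 1681 bp in GD15M_LM. The lower end of ENG overlaps the end of FPGS, an enzyme gene of folate metabolism, by 18 bp, and the H3K27ac found there cannot be given to either gene.

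**Figure D2:**
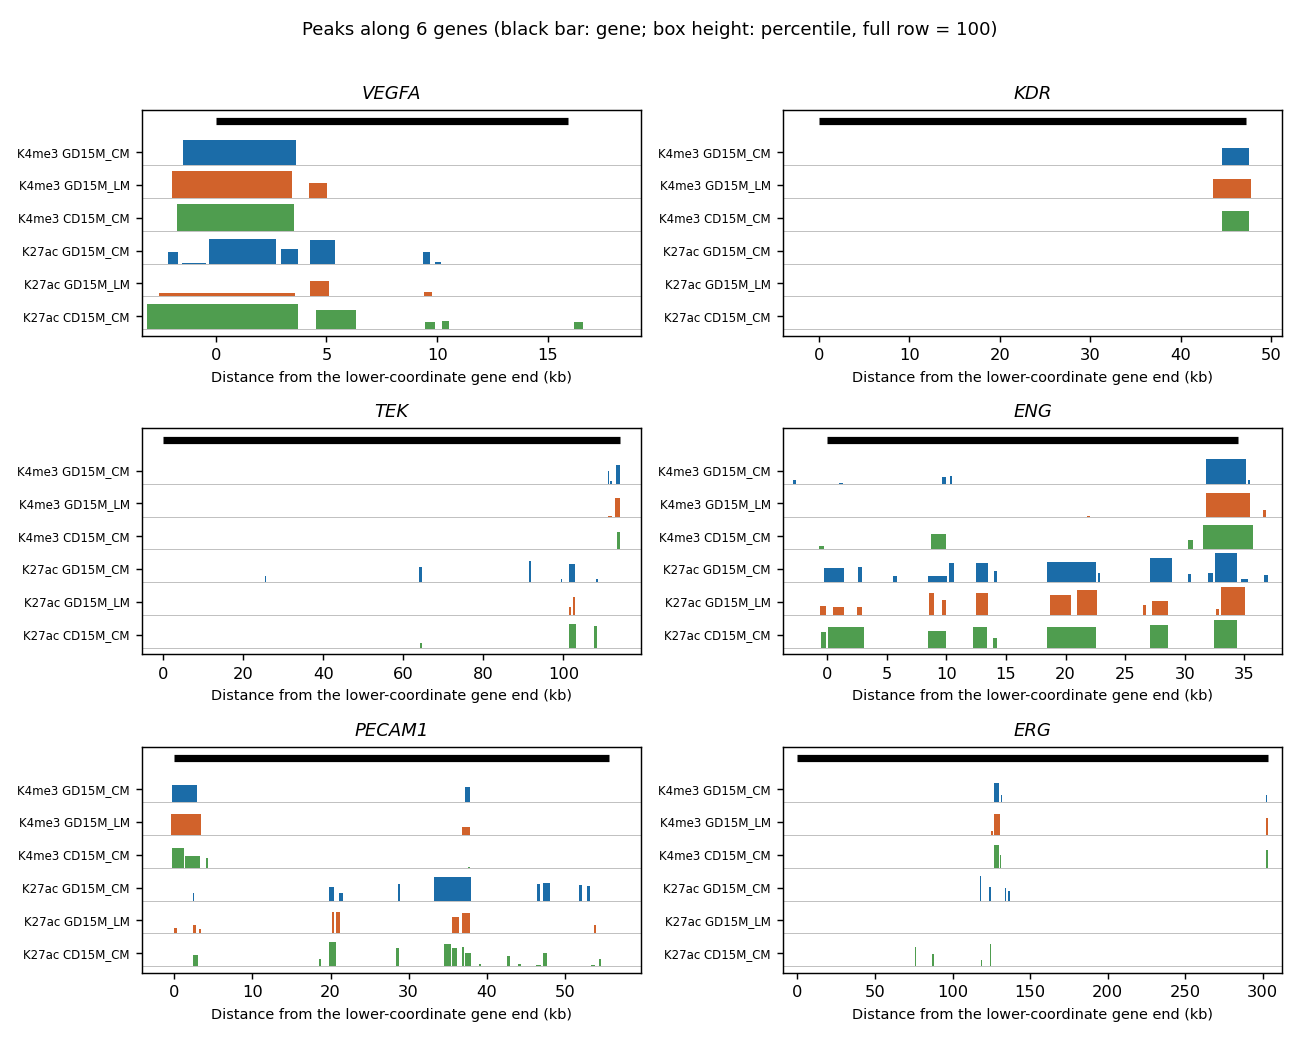
Peaks along VEGFA, KDR, TEK, ENG, PECAM1 and ERG in the 6 lists, against the distance from the lower-coordinate end of the gene in kb (x axis), with box height showing the percentile of the peak in its own list. The leading H3K4me3 peaks stand at the same place in all 3 tissues, KDR has no H3K27ac box, and ERG has none in GD15M_LM.

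CDH5, the cadherin of endothelial junctions, lies at chr6:27108560-27142145. Its leading H3K4me3 peak covered the lower-coordinate end in every tissue, with lengths of 2.58, 3.09 and 2.97 kb and percentiles of 60.2, 61.9 and 64.6. An H3K27ac region at that end was found in both pregnant tissues, at percentile 23.5 in GD15M_CM and 43.6 in GD15M_LM, and not in CD15M_CM, where the nearest H3K27ac peak was 1.39 kb away. The region at 4.00 to 4.77 kb was found in all 3 tissues at percentiles 8.86, 2.84 and 19.0. The highest H3K27ac peak of CDH5 in GD15M_CM, at 13.2 kb and percentile 39.8, was found in that tissue only. All H3K27ac peaks of CDH5 thus stood below percentile 50 of their lists.

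PECAM1, an adhesion molecule between endothelial cells that platelets and leukocytes also carry, lies at chr12:14667643-14723296. H3K4me3 covered the lower-coordinate end, as a peak of 3.23 kb in GD15M_CM, a peak of 3.85 kb in GD15M_LM, and a pair of peaks of 1562 and 1867 bp in CD15M_CM. The percentiles of the leading peak were 60.0, 72.5 and 67.9. A minor H3K4me3 region near 37 kb was found in all tissues, at percentiles 53.2, 28.0 and 1.49. The strongest and broadest H3K27ac in GD15M_CM lay around that inner position, as a peak of 4669 bp at percentile 81.5, and shorter H3K27ac peaks lay there in GD15M_LM and CD15M_CM. Another region, near 20 kb, held the highest H3K27ac peaks of PECAM1 in GD15M_LM and CD15M_CM, at percentiles 73.0 and 80.5. In all, PECAM1 had 16 H3K27ac regions and 3 of them were found in all tissues. A long non-coding RNA, LOC110255989, lies inside the gene at 50567 to 54618 bp from the lower end. The H3K27ac regions there cannot be given to either gene.

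VWF, the large clotting glycoprotein that endothelial cells store and release and that platelets also carry, lies at chr5:64516627-64655938. Its leading H3K4me3 peak lay 372 to 439 bp inside the lower-coordinate end, with lengths of 1.78, 1.77 and 1.85 kb and percentiles of 62.3, 57.3 and 65.5. H3K27ac touched this peak in both pregnant tissues, over 21.2% and 11.3% of its length, and not in CD15M_CM, where the nearest H3K27ac peak lay 29.7 kb away. VWF had 16 H3K27ac regions and only 2 were found in all tissues, the first starting at 48.3 kb and the second at 53.6 kb from the lower end. The highest H3K27ac peak of VWF in CD15M_CM, at percentile 68.4 and 108 kb from the lower end, was found in that tissue only, together with a neighbour at percentile 66.6.

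ERG, the ETS transcription factor that maintains endothelial identity, is the longest of the 10 genes, at chr13:201999237-202302572. Its leading H3K4me3 peak lay deep inside the gene, 127 kb from the lower-coordinate end. It formed a peak of 4.04 kb in GD15M_LM and of 3.49 kb in CD15M_CM, whereas in GD15M_CM the same stretch was split into peaks of 725 and 2526 bp. The percentiles were 66.1, 71.8 and 77.2. A second H3K4me3 region stood at the upper-coordinate end in all tissues, at percentiles 24.2, 59.1 and 60.4. H3K27ac was found in both circular muscles and not in GD15M_LM. The circular muscles shared a region at 118 kb, which held the highest peak of GD15M_CM. It stood at percentile 82.0 in GD15M_CM and 20.8 in CD15M_CM. They also shared a region at 124 kb, which held the highest peak of CD15M_CM and stood at 46.4 in GD15M_CM and 74.3 in CD15M_CM. None of these H3K27ac peaks overlapped the leading H3K4me3 peak, from which the nearest was 2.71 kb away in GD15M_CM, 2.28 kb in CD15M_CM and 246 kb in GD15M_LM.

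The position of H3K4me3 was shared by the 3 tissues at every one of the 10 genes: the leading peaks of all 10 overlapped across the tissues. At 6 genes the leading peak touched an end of the gene in all tissues, and at 8 it lay within 3 kb of one, with TIE1 and ERG as the others. The same counts were not made over all genes, so they describe the 10 genes and show no trait particular to them. Most of the leading peaks were also long within their lists, but lengths were not compared at equal percentile. Of the 30 leading peaks over the 3 lists, 29 were longer than the median peak of their list and 19 were in the longest 20% of it. Their median length was 2783, 3800 and 2997.5 bp in GD15M_CM, GD15M_LM and CD15M_CM, against 2338, 2482 and 2543 bp for the leading peaks of all genes, which had median percentiles of 79.1, 77.8 and 80.2. The median over all peaks of a list was 760, 1007 and 800 bp, so that leading peaks are long among all genes as well, and length and fold enrichment come from the same peak call.

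H3K27ac was then read on these H3K4me3 peaks, a count chosen after the data were seen. It overlapped the leading peak of 7 of the 10 genes in GD15M_CM, 6 in GD15M_LM and 3 in CD15M_CM. Among the leading peaks of all genes the share was 91.3%, 90.9% and 91.7%, and among those in the range of percentiles of the 8 genes other than ENG and VEGFA it was 87.6%, 91.5% and 92.7%. ENG, VEGFA and TIE1 had the overlap in all 3 tissues and KDR, TEK and ERG in none. PECAM1, CDH5 and VWF had it in both pregnant tissues but not in CD15M_CM, and FLT1 had it in GD15M_CM only. The case of PECAM1 turned on how the peak was divided in CD15M_CM, since an H3K27ac peak of 660 bp lay on the second of its pair of H3K4me3 peaks. With an H3K27ac peak counted within 3 kb of the leading peak, a setting also added after the data were seen, the genes numbered 8, 6 and 6 against 92.6%, 91.9% and 92.9% of all leading peaks. Within 1 kb they numbered 7, 6 and 3, against 91.9%, 91.3% and 92.2%. The lower count in CD15M_CM thus held for contact and within 1 kb, and was not lower than that of GD15M_LM within 3 kb.

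**Figure D3:**
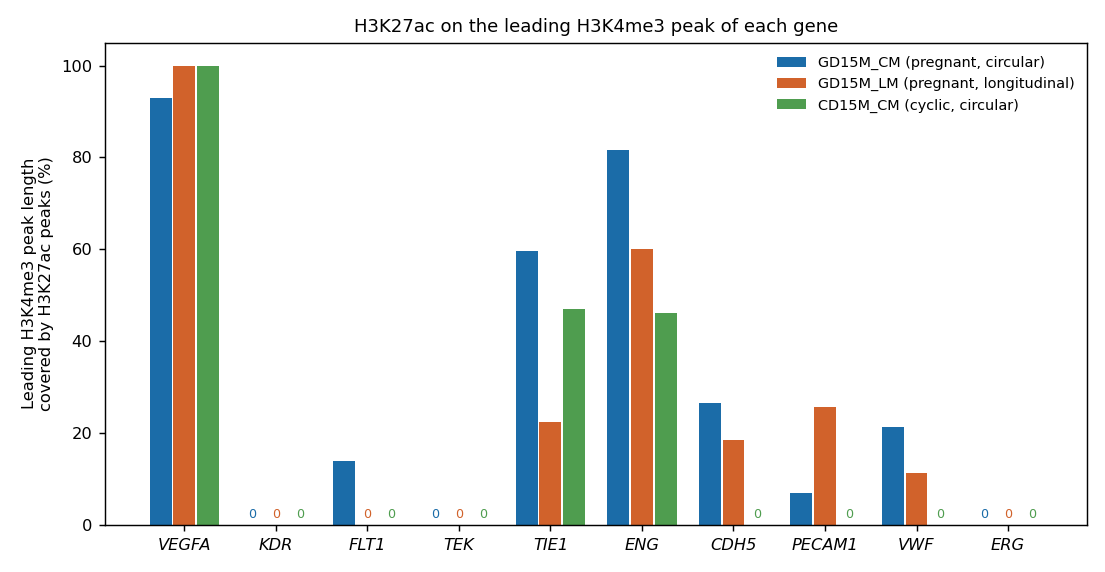
Percent of the length of the leading H3K4me3 peak that was covered by H3K27ac peaks (y axis) for each of the 10 genes in GD15M_CM, GD15M_LM and CD15M_CM, with 0 written where there was none. VEGFA stands at 93.0% to 100%, ENG at 46.1% to 81.7% and TIE1 at 22.4% to 59.6%, while KDR, TEK and ERG are at 0 in every tissue.

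Over all H3K4me3 peaks of the 10 genes, leading or not, an H3K27ac peak overlapped 14 of 25 (56.0%) in GD15M_CM, 10 of 19 (52.6%) in GD15M_LM and 7 of 21 (33.3%) in CD15M_CM. The background over H3K4me3 peaks within 3 kb of any gene was 69.4%, 69.3% and 68.5%. The peaks of a gene share their locus and are not independent. An H3K27ac peak anywhere in the window was less rare: 9, 8 and 9 of the 10 genes had one, against 62.9%, 61.3% and 64.9% of all genes and 83.9%, 83.2% and 86.1% of coding genes of the same length range. The median percentile of the highest H3K27ac peak, with 0 for a gene without one, was 58.6, 47.5 and 71.3, against 84.8, 80.2 and 84.1 for those coding genes counted in the same way.

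The H3K27ac of these genes was shared by the tissues less than their H3K4me3. Peaks that overlapped across tissues were joined into regions. Of 27 H3K4me3 regions, 13 were found in all 3 tissues (48.1%), against 46.1% of regions near any gene. Of 79 H3K27ac regions, 18 were found in all 3 tissues (22.8%), against 33.4%. Another 23 were found in GD15M_CM alone (29.1% against 21.2%), 17 in CD15M_CM alone (21.5% against 19.4%) and 5 in GD15M_LM alone (6.33% against 5.15%). The longitudinal muscle list was the shortest, and a region can be absent from it because fewer peaks were called.

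The first comparison set the circular against the longitudinal muscle of pregnancy. For H3K4me3, 2 of the 10 genes were called, against 41.2% of 17636 genes: TIE1 was 11.2 points higher in GD15M_CM (background 20.9%) and PECAM1 was 12.5 points higher in GD15M_LM (background 20.2%). The other 8 genes differed by less than 10 points. The median difference of the 10 genes, circular minus longitudinal, was -1.07 points against 0.399 over all genes. With peaks less than 1 kb apart joined, 4 of the 10 genes were called, and whether the genes differ from genes at large was not tested.

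For H3K27ac, 5 of the 9 genes with a peak were called between the layers, against 56.3% of 18567 genes. ERG, VEGFA, TIE1 and TEK ranked higher in GD15M_CM, which is 4 genes against a background of 33.8%, and VWF ranked higher in GD15M_LM, against 22.5%. The differences were 82.0 points at ERG, where longitudinal muscle had no peak, 32.5 at VEGFA, 15.9 at TIE1, 13.7 at TEK and, circular minus longitudinal, -11.1 at VWF. At VEGFA, TIE1, TEK and VWF alike, the highest peaks of the layers did not overlap, so different peaks were compared. The VEGFA difference set a peak at the gene end in GD15M_CM against a peak 4.24 kb inside the gene in GD15M_LM. At the gene end itself the highest VEGFA peaks stood at 83.9 and 13.1. At TEK the fold enrichments were 4.16 in GD15M_CM and 4.10 in GD15M_LM. With equal numbers of top peaks the TEK difference was 2.73 points. The median difference was 8.47 points against 2.30 over all genes. The total of 5 of 9 is near the background. With the same number of top peaks taken from both lists, 5 genes were again called, but 2 of them ranked higher in GD15M_CM and 3 in GD15M_LM, while ranking by −log10 p gave 6 genes higher in GD15M_CM, VWF among them, and 0 higher in GD15M_LM. The majority thus stayed with GD15M_CM by −log10 p and turned only with equal numbers of top peaks, so that it depends on the length of the lists. The direction of VWF depends on how peaks are ranked. The 5 epithelial markers moved in the same direction as ERG, VEGFA, TIE1 and TEK, with H3K27ac from 57.9 to 84.1 in GD15M_CM and from 0 to 42.1 in GD15M_LM, where KRT18 and KRT19 were at 0. The 6 mural cell markers, genes of pericytes and vascular smooth muscle, had H3K27ac medians of 65.6 in GD15M_CM and 88.2 in GD15M_LM. Of these markers, 3 were called higher in GD15M_LM, beside 22.5% of all genes. In the other direction 1 was called, beside 33.8%: NOTCH3, at 76.1 in GD15M_CM and 44.5 in GD15M_LM. RGS5 was at 0 in both. The part of other cell types in the differences was not tested.

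The second comparison set pregnancy against the cycle in circular muscle, and it shares the GD15M_CM lists with the first. For H3K4me3, 1 of the 10 genes was called, against 36.3% of 17645 genes. It was ERG, 11.1 points higher in CD15M_CM, where the background was 23.9%, and no gene was called higher in GD15M_CM, against 12.4%. The leading peak of ERG was split in GD15M_CM, and with peaks less than 1 kb apart joined the difference at ERG, pregnant minus cyclic, was -17.2 points. The rank was lower in GD15M_CM at 7 of the 10 genes, with a median difference of -4.60 points, pregnant minus cyclic, against -2.13 over all genes.

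For H3K27ac between pregnancy and the cycle, 2 of the 9 genes were called, against 53.0% of 18998 genes. CDH5 was 20.8 points higher in GD15M_CM (background 25.5%), through the peak at 13.2 kb that was found in GD15M_CM only. VWF was higher in CD15M_CM (background 27.4%), with a difference, pregnant minus cyclic, of -25.3 points, through the peak at 108 kb found in CD15M_CM only. Neither call involved the H3K27ac at the end of the gene, which for both genes was found in GD15M_CM and not in CD15M_CM. When −log10 p ranked the peaks instead, the differences were 0.165 points at CDH5 and -2.82 at VWF, so that neither was called. By fold enrichment the H3K27ac of ENG, PECAM1, VEGFA, ERG, TEK, TIE1 and FLT1 differed by less than 10 points. ERG, VEGFA, TIE1 and TEK, which were called between the layers, are among these, and whether the comparisons differ was not tested.

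**Figure D4:**
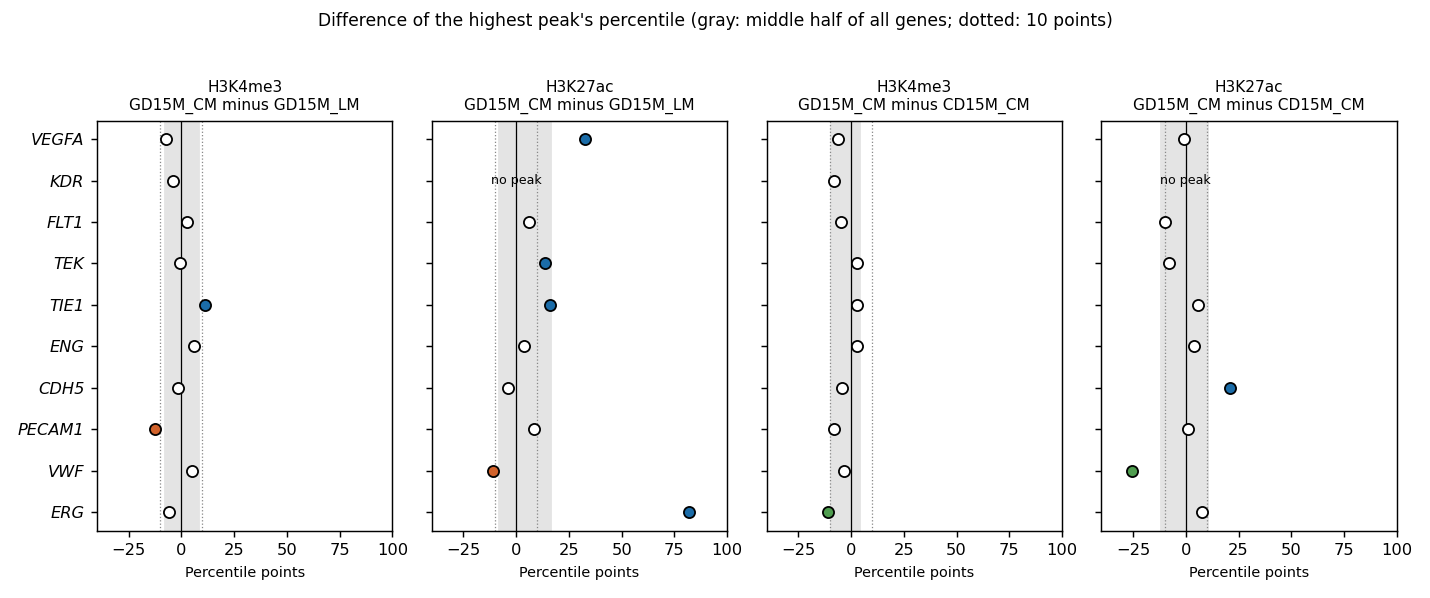
Difference in the percentile of the highest peak (x axis, percentile points) for each of the 10 genes in the 4 comparisons, with the middle range of all genes, from the lower to the upper quartile, in gray and dotted lines at 10 points. Filled points are called: 2 and 5 genes between the layers for H3K4me3 and H3K27ac, and 1 and 2 genes between pregnancy and the cycle.

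Other genes of endothelial signalling, control and surface were counted from 6 lists, 73 genes of which 69 were placed. For H3K4me3 between the layers, 7 of 65 with a peak ranked higher in GD15M_CM (10.8%) and 12 higher in GD15M_LM (18.5%), and between pregnancy and the cycle 5 ranked higher in GD15M_CM (7.69%) and 15 higher in CD15M_CM (23.1%). For H3K27ac between the layers, 26 of 64 ranked higher in GD15M_CM (40.6%) and 19 higher in GD15M_LM (29.7%), and between pregnancy and the cycle 14 of 63 ranked higher in GD15M_CM (22.2%) and 22 higher in CD15M_CM (34.9%). For H3K4me3 each of these shares was below that of all genes called in the same direction. For H3K27ac it was above in both directions between the layers, and between pregnancy and the cycle it was below in the first direction and above in the second. SELE, EMCN and TFPI had no peak in any list.

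Among the 18 endothelial transcription factors, circular muscle stood above longitudinal muscle more often than the reverse. For H3K4me3, 6 ranked higher in GD15M_CM and 0 in GD15M_LM, beside 20.9% and 20.2% of all genes, and for H3K27ac 8 and 2 did, beside 33.8% and 22.5%. The other lists did not share this for H3K4me3. In the same order the counts were 0 and 4 for VEGF and angiopoietin genes, 0 and 3 for junction and surface genes, 0 and 2 for vascular tone, 0 and 2 for hypoxia, and 1 and 1 for Notch and BMP. For H3K27ac these lists gave 3 and 4, 4 and 6, 3 and 3, 3 and 3, and 5 and 1. Whether the lists differ was not tested. MECOM, a zinc finger factor, had H3K4me3 at percentile 96.9 in GD15M_CM and 63.7 in GD15M_LM, and LMO2, a cofactor of blood and vessel development, had 93.6 and 62.5. SOX17, a factor of arterial endothelium, had H3K27ac at percentile 94.2 in GD15M_CM and none in GD15M_LM. Several of these factors are also used by other cells, and SOX17 is known in uterine epithelium, whose markers ranked in the same direction as given above. ERG, which belongs with these factors by function, had H3K27ac in GD15M_CM and none in GD15M_LM, while its H3K4me3 stood at 66.1 and 71.8.

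Large differences were also found at ligands, receptors and a few other genes of the lists. APLN, the ligand of the apelin receptor on growing vessels, had H3K4me3 at percentile 0.854 in GD15M_CM, 55.4 in GD15M_LM and 36.0 in CD15M_CM. ANGPT4, an angiopoietin and ligand of TEK, stood at 3.12, 41.1 and 30.1. For both ligands the pregnant circular muscle was thus the lowest of the 3 tissues. ANGPTL4, a secreted inhibitor of lipoprotein lipase, stood at 38.8 in GD15M_CM and 63.6 in CD15M_CM for H3K4me3, and ARNT, the partner of hypoxia-inducible factors, at 98.1 and 78.0. For H3K27ac, DLL4, the Notch ligand of sprouting tip cells, stood at 90.2 in GD15M_CM and 21.8 in GD15M_LM, S1PR1, the sphingosine 1-phosphate receptor, at 70.0 and 14.0, and BMP6 at 10.0 and 72.0. Between pregnancy and the cycle, PROCR, the endothelial protein C receptor, had no H3K27ac in GD15M_CM and percentile 79.7 in CD15M_CM, VCAM1, an adhesion molecule for leukocytes, had none and 62.6, and HEY1, a target of Notch, had 92.4 and 35.6.

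**Figure D5:**
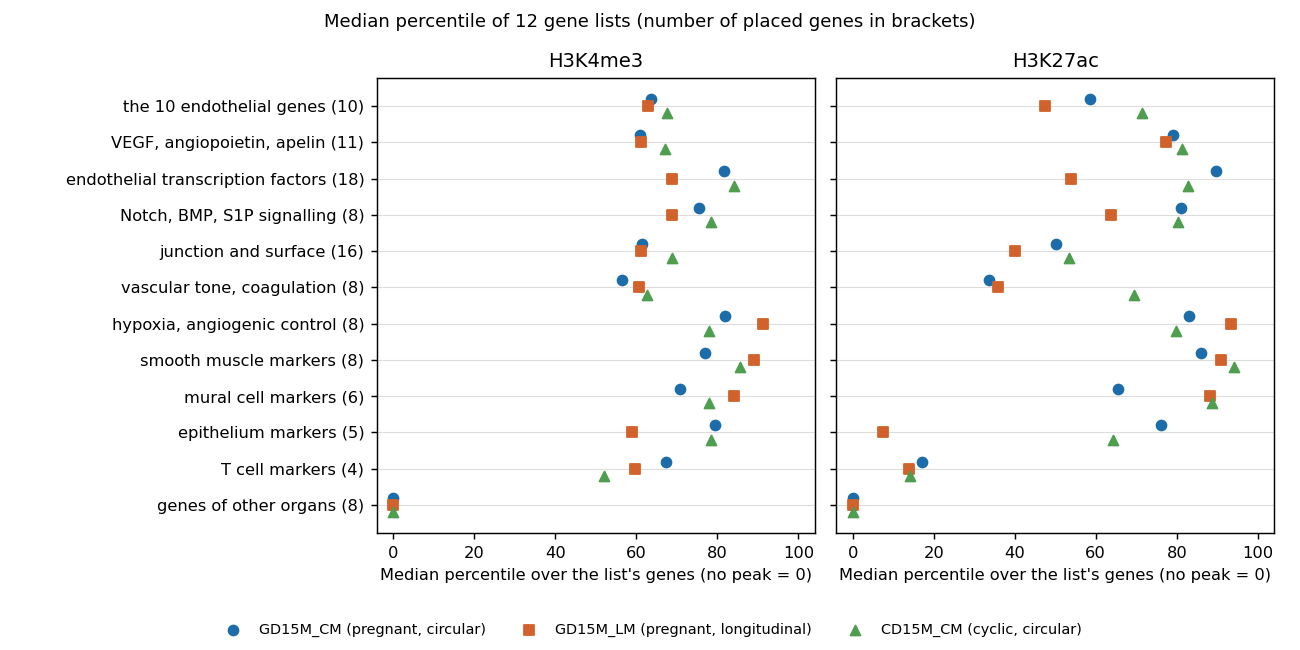
Median percentile (x axis, 0 for a gene without a peak) of the 10 genes, of 6 lists of other vascular genes and of 5 marker lists for H3K4me3 (left) and H3K27ac (right), with 1 point per tissue and the number of placed genes in brackets. The 10 genes stand at 63.0 to 67.7 for H3K4me3, below smooth muscle markers at 77.0 to 89.0, and genes of other organs stand at 0.

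Markers of cells that share some of the 10 genes were also read. The 4 lymphatic endothelial markers had H3K4me3 medians of 63.7, 57.9 and 69.2, in the same range as the 10 genes, and H3K27ac medians of 52.1, 8.80 and 51.3, with LYVE1 at 0 for H3K27ac in all tissues. The 3 placed markers of platelets and megakaryocytes, cells that carry PECAM1 and VWF, had H3K27ac medians of 87.4, 45.8 and 86.3, with ITGA2B at 0 in GD15M_LM. The 6 markers of macrophages and other leukocytes had H3K4me3 medians of 63.6, 62.2 and 67.9 and H3K27ac medians of 80.4, 61.8 and 75.8, with PTPRC at 0 for H3K27ac in all tissues. The 4 T cell markers had H3K4me3 medians of 67.4, 59.6 and 52.1, the 5 fibroblast markers 73.5, 82.2 and 82.1, and the 3 placed mesothelial markers 54.2, 61.0 and 59.9. Their part in the values of the 10 genes was not tested.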

How the data were processed

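CUT&Tag libraries for H3K4me3, H3K27ac and IgG were made from 3 myometrial tissues with 2 gilts each. Per the labels, the authors aligned reads with BWA 0.7.17-r1188, handled them with SAMtools 1.9 and Picard 2.8.3 and called peaks with MACS2 2.2.6. Duplicates and reads of low mapping quality were removed, and both gilts were pooled before calling on Sscrofa11.1. Each deposited peak has a position, a length in bp, a fold enrichment (the ratio of mark over IgG) and −log10 p, as the authors' MACS2 run wrote them. The name of the −log10 p column was unreadable, and the column was identified by its equality with the column of that name in the study's own peak table. A further column, taken to be −log10 q, was not used. How mark and IgG were scaled, and whether the fold enrichment is that of the summit, is not given in the sources used here. The peak lists carry no read counts, and read totals given elsewhere in the study were not used here, so that no interval was computed.

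Peaks were overlapped with 28210 RefSeq gene models by at least 1 bp, with 3 kb added on both sides, using pandas 2.3.3, NumPy 2.4.6 and Matplotlib 3.10.9 under Python 3.11.15. Because the gene models came without strand, the planned start-site window became 3 kb around either gene end. Percentiles were mean ranks by fold enrichment within a list, and a difference of 10 points was called. The background was every gene with a peak in at least 1 of the lists compared. Overlap code was tested on 400 simulated windows, of which 0 were wrong. No sequences were read, as no genome was used here.

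The 10 genes, the other vascular genes and the marker lists were chosen with earlier results of these data known. Named genes were the 10, and up to 4 other vascular genes per comparison with the largest differences; SELE, EMCN and TFPI and single markers were named after their values were seen.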

Additional observations from a re-analysis of the deposited data

How the results depend on the processing

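No paired analysis was possible because both gilts of a tissue were pooled before peak calling, and for the same reason no replicate could be left out. The number of genes called for H3K4me3 between the layers, 2, became 1 with peaks ranked by −log10 p, 1 with equal numbers of top peaks, 4 with peaks less than 1 kb apart joined and 0 at 20 points. For H3K27ac between the layers, 5 became 0 with strict peaks (fold enrichment 5 or higher and −log10 p 10 or higher), 2 at 20 points, and 5 with equal numbers of top peaks, where the majority turned from GD15M_CM to GD15M_LM (2 against 3); by −log10 p it was 6 against 0. For H3K4me3 between pregnancy and the cycle, 1 became 0 by −log10 p, 0 with equal numbers, 3 with joined peaks and 0 at 20 points. For H3K27ac, 2 became 1 by −log10 p, which was neither CDH5 nor VWF, and 0 with strict peaks. The genes with an H3K27ac peak fell to 1 in each tissue with strict peaks, leaving ENG, and to 5 in GD15M_LM and 3 in CD15M_CM around the gene ends. The share of H3K4me3 peaks under H3K27ac fell to 8.33%, 7.69% and 9.09% with strict peaks, and to 36.0% in GD15M_CM and 31.6% in GD15M_LM and 19.0% in CD15M_CM when 50% of the H3K4me3 peak had to be covered. For the strict, gene-end and 50% settings no share over all genes or peaks is given, so these falls show no trait of the 10 genes. The median fold enrichment of the H3K27ac lists was 3.49, 3.79 and 3.53 in GD15M_CM, GD15M_LM and CD15M_CM, below the strict cut of 5. The genes with H3K27ac on the leading H3K4me3 peak in CD15M_CM rose from 3 to 6 within 3 kb and stayed at 3 within 1 kb.

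Of single calls, the H3K27ac difference of VWF between the layers turned to 16.4 points by −log10 p, that of TIE1 to -2.18 with equal numbers of top peaks, and that of VWF between pregnancy and the cycle to 8.20 around the gene ends. The other 67 of 70 values kept their direction in 56 cases and became 0 in 11, where neither list held a peak. The cause was not tested. With 1 pooled list per tissue, none of the differences can be set against the spread between gilts from these lists. The study made its own differential analysis of both marks, which was not used here. It reported far fewer differing H3K27ac regions between pregnancy and the cycle in circular muscle than between the layers.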
